A study of Mus musculus with 12 samples.

Results

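The 6 bulk RNA-seq libraries described here came from mouse endometrial epithelial organoids that lack Esr1, out of 12 libraries in the series. They were chosen by their labels, Esr1 knockout (KO) organoids with estrogen (3 libraries) and KO organoids without estrogen (3 libraries), and were described by the absolute level of their genes, without a comparison of genotypes. Both groups share the Esr1 knockout, the culture in Cultrex (a basement membrane matrix) with expansion medium, and passage 3. They differ in the addition of estrogen. Endometrial epithelial organoids are hollow cultures grown from epithelium taken out of digested uteri, so stroma, muscle and blood vessels are not meant to be part of them. The labels give neither the deleted exons nor a Cre driver, the age of the mice, the dose and time of estrogen, or whether replicates came from separate animals. They do say, of wild-type and KO organoids alike, that no response to estrogen was seen.

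Esr1 encodes estrogen receptor alpha, a nuclear receptor through which estrogen drives growth and secretion of the uterine epithelium. The healthy mouse uterus is lined by a simple columnar luminal epithelium and by glands, whose formation needs the transcription factor Foxa2 and whose products include lactoferrin (Ltf). Basal cells marked by Krt5 and Trp63, and the cornifying squamous cells above them, belong to the stratified epithelium of the vagina and are not a regular part of the endometrium. Ciliated cells, which switch on the transcription factor Foxj1 and then the many genes of the cilium, are common in the oviduct and, in many mammals, present in the endometrium.

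The libraries held 104747000 ± 3479800 counted reads with estrogen and 79387600 ± 3819460 without (SD, n = 3 each). Levels are given as CPM, the reads of a gene per 1000000 counted reads of its library, and therefore as shares. A higher share of some genes lowers that of all others. In bulk RNA, fewer cells of a type and less RNA per cell cannot be told apart. Between 13038 and 13345 genes exceeded 1 CPM in a library, 12800 did so in all 6, and 6133 of the 26264 genes listed had 0 reads in all 6. Esr1 itself was still read at 20.6, 22.0 and 19.9 CPM in KO organoids with estrogen and at 18.1, 17.6 and 17.8 CPM in KO organoids without estrogen, against 237 to 328 CPM in the 6 wild-type libraries. The knockout labels therefore fit the Esr1 reads in every library. The counts sum all exons of the gene, so reads of exons outside a deletion are included.

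The genes with the most reads in KO organoids encoded secreted defence proteins, translation factors and basal or squamous keratins. The 20 genes with the highest mean CPM held 9.89 ± 0.62% of all reads (SD, n = 6), and the highest 100 held 20.4%. Ltf, the iron-binding antimicrobial protein of uterine secretions, stood first with 18402 ± 4505 CPM, or 1.84% of all reads. It had 14595, 25545 and 21273 CPM with estrogen and 13208, 17568 and 18224 CPM without estrogen. The replicate 1 libraries were the lowest of both groups, and the groups overlapped. Other secreted proteins among the 20 were Olfm4, a glycoprotein of gland and crypt epithelium (8772 ± 488 CPM), the chitinase-like Chil1 (8218 ± 1478), complement factor Cfb (7613 ± 1207), ceruloplasmin (Cp, 3917 ± 643), the siderophore-binding Lcn2 (3018 ± 684) and complement C3 (2644 ± 504). Pigr, which carries immunoglobulin A across epithelium, had 2682 ± 298 CPM.

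Keratins of stratified epithelium stood among the 20. Krt5, a keratin of basal cells, ranked seventh with 5273 ± 1773 CPM, and its basal partner Krt14 had 2109 ± 654 CPM. Krt6b (2282 ± 1058) and Krt16 (2222 ± 892), which are keratins of stressed and hyperproliferative stratified epithelium, lay between them. The remaining members were the translation factors Eef1a1 (8918 ± 511) and Eef2 (3253 ± 148), the ribosomal protein gene Rpl4 (2162 ± 224), Tpt1, the ferritin chains Fth1 and Ftl1, the glycolytic enzyme Aldoa, and Gsto1, a glutathione transferase (6000 ± 541). Highest over lowest library was 1.15 for Eef2, 1.16 for Olfm4 and 1.17 for Eef1a1, but 2.46 for Krt5, 2.87 for Krt16 and 3.35 for Krt6b. The keratins thus varied more between libraries than the translation factors did.

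**Figure D1:**
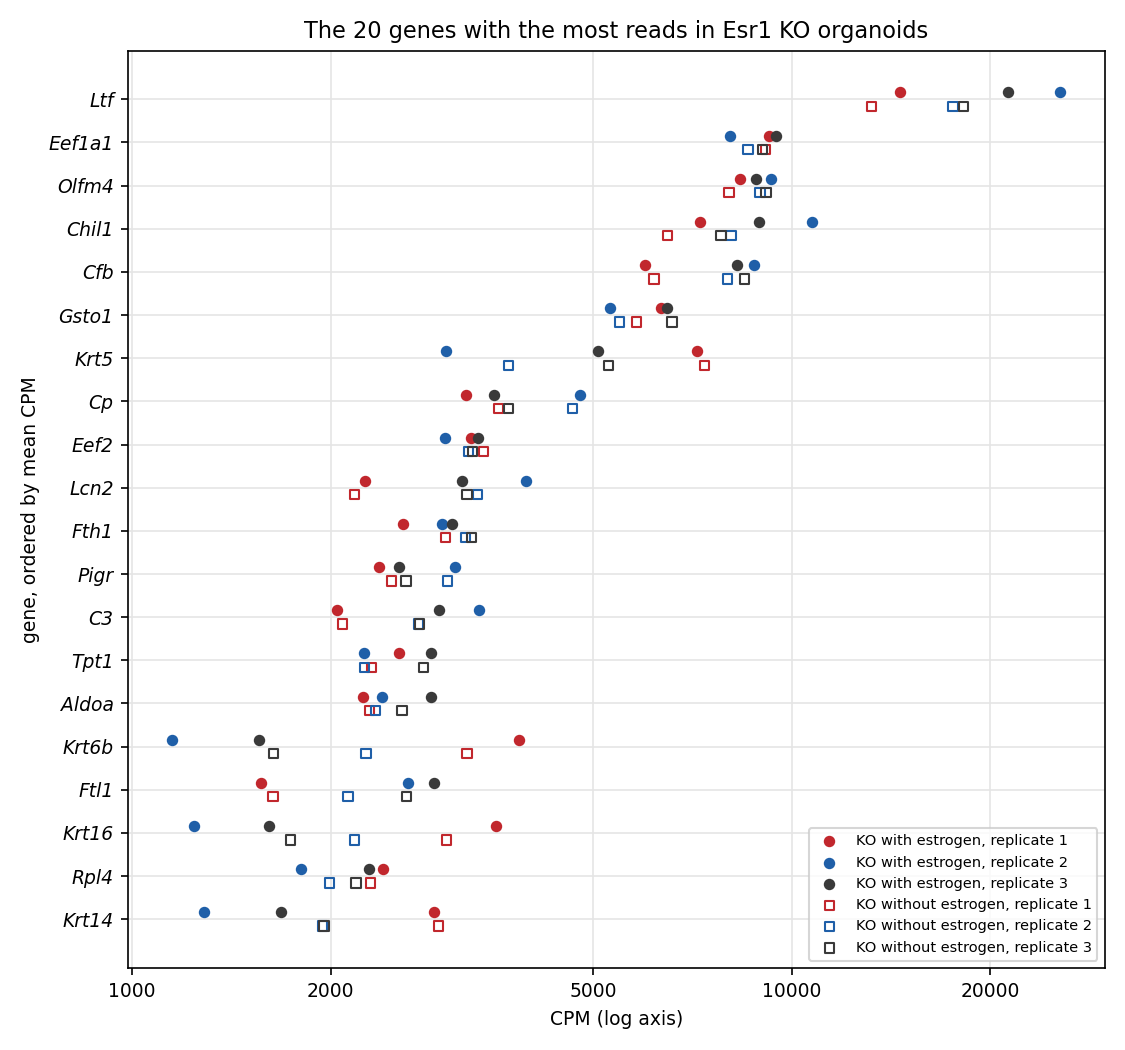
CPM (log axis) of the 20 genes with the most reads in the 3 KO libraries with estrogen (filled circles) and the 3 without (open squares), coloured by replicate number. Replicate 1 (red) lies lowest for Ltf, Lcn2 and C3 and highest for Krt5, Krt6b and Krt16, in both treatments.

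Counts grow with the length of a gene, so the order of genes was also read as CPM per kilobase of exon. On that scale Ltf remained first among the 20 with 6709 ± 1642 CPM per kilobase, and Gsto1 (5076 ± 457), Eef1a1 (4971 ± 285) and Chil1 (4871 ± 876) followed with overlapping ranges of mean ± SD. Lcn2 (3298 ± 747), Olfm4 (3025 ± 168) and Cfb (2782 ± 441) came next, again with overlapping ranges, and Krt5 had 2400 ± 807. All 55 keratin genes listed took 1.96 ± 0.59% of the reads, with 1.23% in the lowest and 2.76% in the highest library, and 23 of them exceeded 1 CPM in all 6. The 85 ribosomal protein genes took 6.68 ± 0.66%.

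Basal cell genes were present as a whole set. All 28 listed members exceeded 1 CPM in all 6 libraries, and 18 exceeded 100 CPM on average. Their sum was 18057, 9419 and 13094 CPM with estrogen and 18070, 11144 and 13158 CPM without estrogen, a mean of 1.38 ± 0.36% of reads. Replicate 1 was the highest and replicate 2 the lowest library in both treatments, and the groups overlapped. Krt5 made up 38.1% of the sum, with 7186, 2994 and 5091 CPM with estrogen and 7374, 3719 and 5271 CPM without. Trp63, the transcription factor that sets up stratified epithelium, had 166, 66.5 and 96.9 CPM with estrogen and 157, 99.1 and 94.6 CPM without. The replicate 1 libraries of both treatments were again the highest.

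Krt14 and Krt17 followed Krt5 in reads, and the hemidesmosome collagen Col17a1, which anchors basal cells to the matrix, averaged 664 CPM. Krt15, a keratin of basal progenitors, had 603, 149 and 398 CPM with estrogen and 494, 157 and 371 CPM without, so its highest library stood 4.05-fold above its lowest. The laminin chains Lama3 and Lamb3 averaged 223 and 461 CPM, and of these Lamb3 was highest in replicate 1 in both treatments and Lama3 was not.

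Most squamous genes on the list were expressed, among them parts of the cornified envelope. Of 44 listed genes in the files, 42 exceeded 1 CPM in all 6 libraries and 25 exceeded 100 CPM on average. The sum was 26671, 10732 and 15056 CPM with estrogen and 23917, 16617 and 15192 CPM without estrogen, a mean of 1.80 ± 0.60% of reads. Replicate 1 was highest in both treatments, while the lowest library was replicate 2 with estrogen and replicate 3 without. By reads, Krt6b and Krt16 were followed by Krt13, a keratin of non-cornified stratified epithelium, with 2443, 676 and 1382 CPM with estrogen and 1867, 1017 and 1292 CPM without, and Krt6a with a mean of 1417 CPM. On the scale per kilobase the small proline-rich protein Sprr2d (2003) and Krtdap (1689) stood above Krt16 (1420) and Krt6b (1021).

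The cross-linking enzyme Tgm1 averaged 337 CPM, loricrin (Lor) 60.3 and involucrin (Ivl) 19.3, which are parts of the cornified envelope. Krt10 and Krt1, the keratins of epidermal suprabasal cells, averaged 84.8 and 6.05 CPM, and Krt4 averaged 7.72 CPM. Tgm3 (0.687 CPM on average) and Dsg1a (1.46) did not exceed 1 CPM in every library, and Flg was not found by symbol.

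Ciliated cell genes took a small share of the reads, with nearly every listed gene present. Of 42 listed cilium structure genes in the files, 41 exceeded 1 CPM in all 6 libraries and 40 exceeded 10 CPM. Their sum was 2477, 3714 and 2681 CPM with estrogen and 2979, 4704 and 3414 CPM without estrogen, a mean of 0.333 ± 0.081% of reads. Replicate 2 was the highest library in both treatments and replicate 1 the lowest. Tubb4b, a tubulin of axonemes that other cells use as well, made up 23.9% of the sum, and Tuba1a, Dnah5 (an outer arm dynein) and Tppp3 came next with 199, 186 and 137 CPM on average.

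Foxj1 had 299, 419 and 288 CPM with estrogen and 371, 548 and 382 CPM without estrogen. The replicate 2 libraries were highest, and the groups overlapped. The genes of the ciliated regulator list were all read, with 17 of 18 above 1 CPM in all 6 libraries. Ccno averaged 88.3 CPM, Tfdp1 75.8, Myb 46.3, Deup1 45.5, Rfx3 45.5, Gmnc 27.0 and Mcidas 23.4 CPM. Being listed does not make a gene particular to ciliated cells. Cdk1 is on the proliferation list too, and Pax8, also listed here, averaged 78.0 CPM. Gmnc and Mcidas start the multiciliated fate, Ccno and Deup1 act in centriole amplification, and the RFX factors work with Foxj1 on cilium genes.

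RFX factors bind the X-box, and its GTTGCC core was looked for, on both strands, in the 250 bases before the start of each RefSeq gene (GRCm38.p6). Of the 44 cilium structure genes, 36 were matched by symbol, with 42 windows. The core stood in 16 of these windows (38.1%), against 3425 of all 32851 windows (10.4%), 4 of 19 for ciliated regulators, 1 of 26 for basal, 6 of 31 for squamous, 1 of 16 for glandular and 2 of 21 for secreted and mucin genes. The inverted repeat GTTGCCNNGGNAAC, which contains the core, stood in 1 window, that of Pifo, against 80 of all windows (0.244%). A match describes these letters and shows no binding. The Pifo window is shown because of the inverted repeat, and those of Ccdc153, Lrrc23 and Hydin because they were the members with a core that had the highest CPM. Capitals mark the inverted repeat in Pifo and the core, in either orientation, in the others, and each run ends at the base before the start.
Pifo: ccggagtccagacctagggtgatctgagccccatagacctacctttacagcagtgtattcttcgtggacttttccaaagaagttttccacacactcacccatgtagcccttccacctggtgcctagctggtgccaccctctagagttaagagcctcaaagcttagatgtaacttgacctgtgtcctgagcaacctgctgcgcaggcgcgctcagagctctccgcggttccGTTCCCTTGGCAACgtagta
Ccdc153: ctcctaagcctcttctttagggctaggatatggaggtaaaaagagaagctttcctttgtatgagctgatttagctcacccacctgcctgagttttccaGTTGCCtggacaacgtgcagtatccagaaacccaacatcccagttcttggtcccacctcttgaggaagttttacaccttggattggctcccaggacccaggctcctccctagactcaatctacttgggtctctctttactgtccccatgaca
Lrrc23: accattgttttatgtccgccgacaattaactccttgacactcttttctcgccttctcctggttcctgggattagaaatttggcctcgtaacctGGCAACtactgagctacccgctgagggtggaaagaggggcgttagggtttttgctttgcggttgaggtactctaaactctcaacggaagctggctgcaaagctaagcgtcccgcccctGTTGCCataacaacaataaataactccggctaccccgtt
Hydin: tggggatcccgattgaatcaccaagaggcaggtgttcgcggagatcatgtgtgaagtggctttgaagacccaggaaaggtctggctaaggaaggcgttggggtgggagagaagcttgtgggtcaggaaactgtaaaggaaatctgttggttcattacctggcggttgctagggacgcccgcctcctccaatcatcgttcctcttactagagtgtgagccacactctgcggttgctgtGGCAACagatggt
These windows are chr3:106001498-106001747 on the minus strand for Pifo, a ciliary protein, chr9:44240427-44240676 on the plus strand for Ccdc153, chr6:124779728-124779977 on the minus strand for Lrrc23, a radial spoke protein, and chr8:110266727-110266976 on the plus strand for Hydin, a protein of the central pair. Ccdc153 had 67.9, 122 and 81.5 CPM with estrogen and 77.9, 168 and 114 CPM without. Replicate 2 was highest in both treatments, as it was for Pifo, Lrrc23 and Hydin.

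Secretory genes took the largest share of the lists examined. The secreted and mucin list summed to 37182, 58303 and 49907 CPM with estrogen and 35116, 45846 and 45714 CPM without estrogen, a mean of 4.53 ± 0.85% of reads, of which Ltf made up 40.6%. Replicate 1 was the lowest in both treatments. Below Ltf, Chil1, Cfb, Lcn2 and C3, the gel-forming mucin Muc5b had 1236, 1674 and 1498 CPM with estrogen and 1341, 1788 and 1439 CPM without, and the membrane mucin Muc4 averaged 680 CPM. The gel-forming Muc5ac averaged 88.6 CPM. Of 30 members, 20 exceeded 1 CPM in all 6 libraries. Tff3 and Bpifa1 had 0 reads in all 6, and Scgb1a1, the secretoglobin of airway club cells, averaged 0.113 CPM.

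Gland genes were present in part. Of 19 listed members in the files, 12 exceeded 1 CPM in all 6 libraries and 5 stayed below it in all 6. Foxa2, the gland transcription factor, had 65.9, 65.9 and 57.5 CPM with estrogen and 70.5, 71.6 and 72.2 CPM without estrogen. The groups did not overlap, but the difference did not pass (log2 fold change -0.14 with over without estrogen, edgeR adjusted p = 1.0), nor did it with replicate number as a block (adjusted p = 0.226). Pigr and Wfdc2 together with Cxadr and Wnt7b held 94.3% of the list's reads. Wfdc2, a small secreted protease inhibitor, had 2031, 1996 and 1862 CPM with estrogen and 1946, 1863 and 2027 CPM without. By contrast the implantation serine proteases Prss28 and Prss29 averaged 0.0245 and 0.0157 CPM, Ttr 0.0201 CPM and the stem cell receptor Lgr5 0.781 CPM. The averages of Prss28, Prss29 and Ttr lay under the 0.0276 CPM that 3 reads make up in the deepest library. Lif, the cytokine of implantation, had 51.8, 40.2 and 46.5 CPM with estrogen and 51.0, 38.3 and 50.3 CPM without.

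Genes of simple epithelium were expressed beside the basal and squamous ones, with 27 of 28 above 10 CPM in all 6 libraries and a sum of 1.08 ± 0.08% of reads. The keratin pair Krt8 and Krt18 averaged 723 and 605 CPM, Epcam 751, E-cadherin (Cdh1) 734, and the apical protein Prom1 1011 CPM. Of 19 luminal genes 18 exceeded 1 CPM in all 6. Sprr1a, which is on the squamous list too, led the luminal list with 1013 CPM on average, or 22.3% of its reads. Krt19, Krt7 and the laminin chain Lama5 averaged 701, 680 and 640 CPM, whereas Ihh, the hedgehog ligand by which luminal epithelium signals to stroma, averaged 0.0554 CPM. Proliferation genes were read in every library, with Top2a at 200 and Mki67 at 130 CPM on average.

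Markers of other tissues of the uterus were in part near 0 and in part read at clear levels. Of 18 stromal genes, 12 stayed below 1 CPM in all 6 libraries, among them Col1a1, Col3a1, Dcn and Thy1, and Lum had 0 reads. Postn, a matrix protein (985 ± 151 CPM), and Fbln1 (203 ± 43.1 CPM) held most of that list's reads. Col3a1 had 0, 0 and 0.425 CPM with estrogen and 0, 0 and 0.888 CPM without, so its reads came from the replicate 3 libraries of both treatments. The smooth muscle list rested on Smtn (120 CPM), with Actg2 at 0.00314 and Des at 0.0112 CPM. The immune list rested on Cd68 (138 CPM), a lysosomal protein, with Ptprc at 0.00629 CPM and Cd3g at 0 reads. Endothelial genes summed to 4.87 to 7.79 CPM with Emcn and Cldn5 at 0 reads. Of the 8 mesothelial genes 4 exceeded 1 CPM in all 6 libraries. Krt19, which simple epithelium also expresses, held 92.7% of that list's reads, Msln averaged 42.9, Upk3b 7.42 and Muc16 3.31 CPM, and Wt1 0.0128 CPM.

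**Figure D2:**
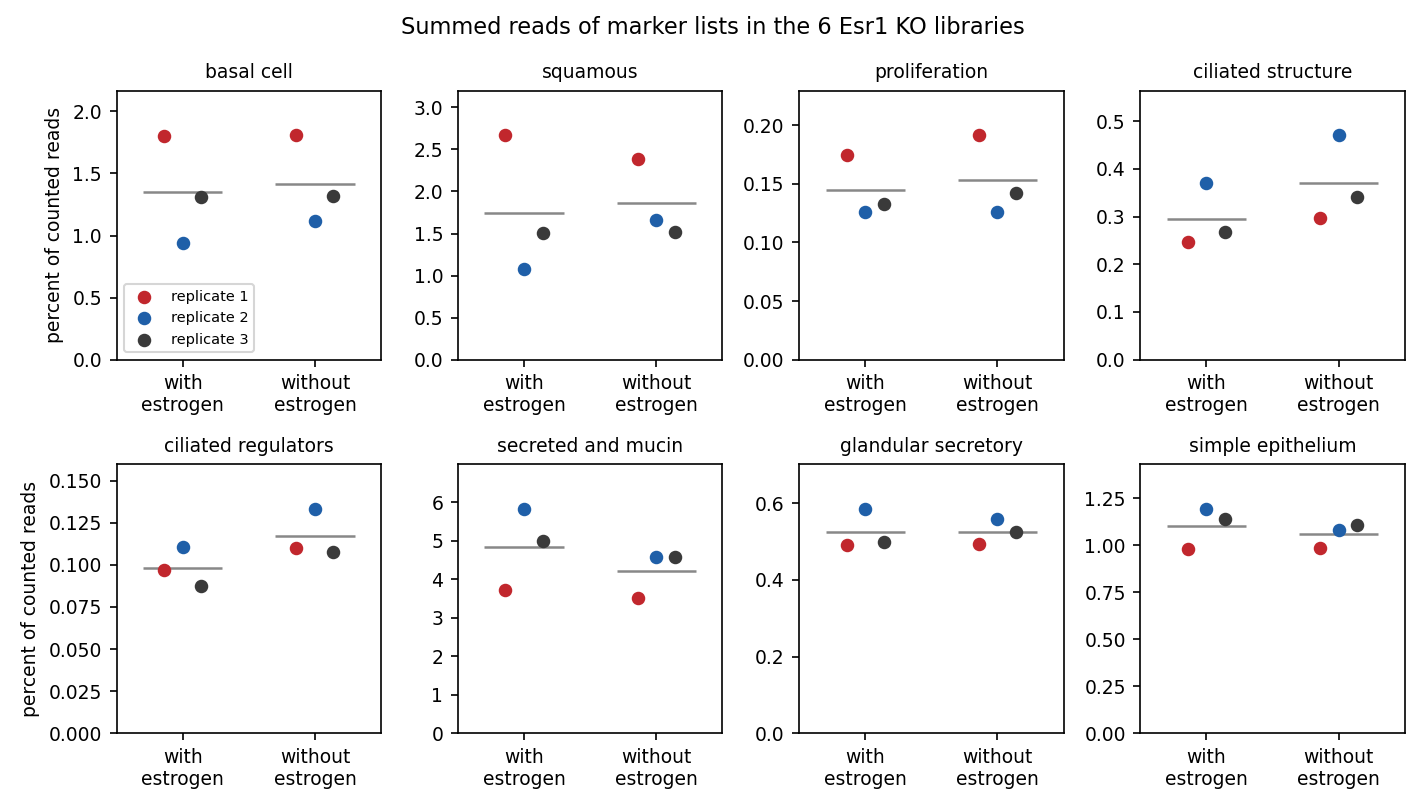
Percent of counted reads taken by 8 marker lists in each KO library with estrogen (left in each panel) and without (right), coloured by replicate number, with grey lines at group means. Replicate 1 is highest for the basal, squamous and proliferation lists and replicate 2 for the ciliated lists in both treatments.

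Xbp1, Elf3 and Foxj1 were the most abundant transcription factors per length, while Klf4 (30.6 CPM per kilobase of exon) and Trp63 (18.7) stood below the highest 20. Of 584 factors of the families examined, 347 exceeded 1 CPM in all 6 libraries and 72 had 0 reads in all 6, and together they took 1.87% of reads. Per kilobase of exon, Xbp1, a factor of secretory cells, stood first with 215 ± 22.7 CPM per kilobase, followed by the epithelial ETS factor Elf3 (159 ± 32.6), Foxj1 (147 ± 36.1) and the AP-1 members Junb (143 ± 13.0) and Jund (142 ± 8.81). The ranges of mean ± SD of Elf3, Foxj1, Junb and Jund overlapped, and that of Xbp1 lay above them. Next came the stress factor Atf4 (114 ± 9.38) and the ETS factor Ehf (113 ± 10.6), which did not differ beyond their spread, then Bhlhe40 (90.6 ± 8.56), Hes1, a target of Notch signalling (74.4 ± 7.08), and Hoxb6 (68.3 ± 5.60). Also among the highest 20 were Nfe2l1, Mxd1, Dlx5, Nfe2l2, Foxo3, Pitx1, Srebf2, Hif1a and Smad4, between 42.0 and 64.8 CPM per kilobase.

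Between the highest and lowest library Nfe2l2 differed 1.10-fold and Smad4 1.13-fold, Hif1a 1.62-fold, Elf3 1.63-fold, Foxj1 1.91-fold and Pitx1 2.97-fold. Pitx1, a homeobox factor of the hindlimb in mouse, had 183, 61.7 and 112 CPM with estrogen and 171, 80.6 and 106 CPM without. Hif1a, the oxygen-sensing factor, had 277, 178 and 226 CPM with estrogen and 280, 173 and 213 CPM without. Both were highest in replicate 1 and lowest in replicate 2 in both treatments, as Krt5 was. Of the HOX clusters, which mark position along the body, the Hoxb cluster was expressed, with 8 of 10 genes above 1 CPM in all 6 libraries. None of 11 Hoxa, 9 Hoxc and 9 Hoxd genes did so. Hoxa10 and Hoxa11, which in the uterus are strong in stroma, averaged 0.004 and 0.0112 CPM.

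**Figure D3:**
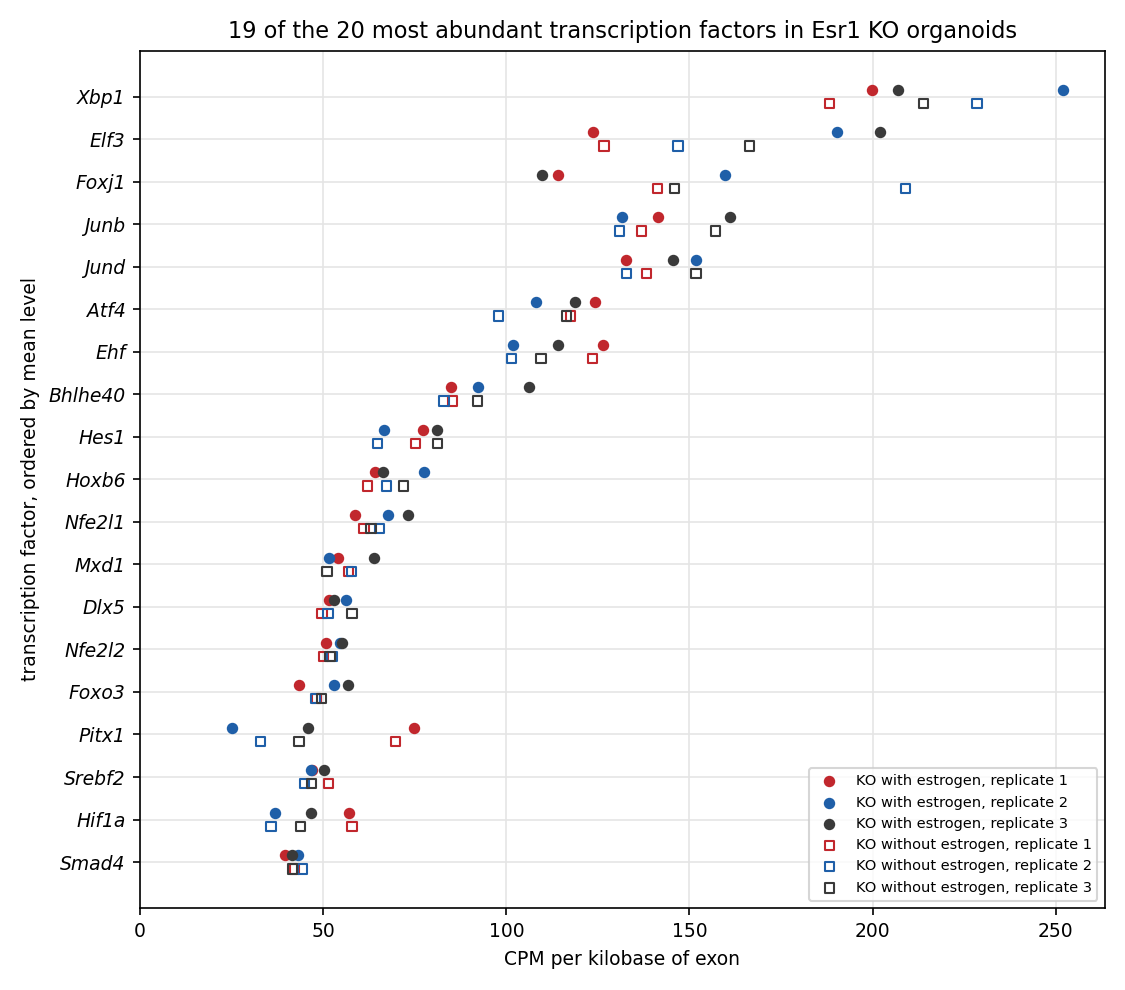
CPM per kilobase of exon of 19 of the 20 most abundant transcription factors in KO libraries with estrogen (filled circles) and without (open squares), coloured by replicate number. Foxj1 is highest in replicate 2, and Pitx1 and Hif1a are highest in replicate 1, in both treatments.

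The lineage genes moved in blocks between libraries, and the blocks followed the replicate number in both treatments. Of 15900 genes tested, 5589 (35.2%) differed by replicate number among the 6 KO libraries, of which 2673 (16.8%) were higher in replicate 1 than in replicate 2 and 2916 (18.3%) lower (edgeR's quasi-likelihood test with treatment in the model, Benjamini-Hochberg adjusted p under 0.05). The test takes all replicate numbers together. Its p-values therefore do not test the ratio of replicate 1 over replicate 2 printed beside them, and a call can also rest on replicate 3. Without the replicate 1 library with estrogen 2561 genes passed. The first principal component, 43.2% of the variance, put the replicate 1 libraries at 34.9 with and 33.3 without estrogen, and the other 4 between -32.4 and -7.63. As a background for the counts below, 66.7% of all genes tested had their highest library at the same replicate number in both treatments, 28.3% in replicate 1, 31.3% in replicate 2 and 7.20% in replicate 3. Members of a list are read from the same libraries and are not replicates of each other.

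Cilium genes were highest in replicate 2. All 42 structure genes tested had their highest level there in both treatments, and all 42 differed by replicate number, with a median log2 ratio of replicate 1 over replicate 2 of -0.67, against -0.0032 over all genes. Leaving out a library left 39 to 41 called. Dnah11, a dynein of the outer arm, had 20.6, 46.5 and 29.9 CPM with estrogen and 23.3, 47.6 and 34.8 CPM without (log2 ratio -1.08, edgeR adjusted p = 4.41e-06). Rsph4a, a radial spoke protein, and Dnah9 had ratios of -0.95 and -0.93 (both adjusted p = 4.82e-06). The regulators split. Foxj1 (log2 ratio -0.51, edgeR adjusted p = 0.000378), Rfx3 (-0.52) and Ccna1 (-0.60) followed the structure genes, while Tfdp1 (0.35), Cdk1 (0.30), Mcidas (0.18) and E2f4 (0.16) were higher in replicate 1 than in replicate 2. Mcidas and E2f4 were lowest in replicate 3 in both treatments, with log2 ratios of replicate 3 over replicate 2 of -0.31 and -0.038. Of 18 regulators 13 differed, 5 of them higher in replicate 1, and 8 differed without the replicate 1 library with estrogen.

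Basal, squamous and proliferation genes were highest in replicate 1. All 30 proliferation genes had their highest level there in both treatments and differed by replicate number (median log2 ratio 0.53, 23 to 30 called with a library left out). The replication licensing genes Mcm5 (log2 ratio 1.18), Mcm3 (1.11) and Mcm6 (0.98) had the smallest p-values of that list. Mcm3 had 52.9, 25.4 and 33.5 CPM with estrogen and 54.6, 25.1 and 35.9 CPM without (edgeR adjusted p = 2.67e-06). Of 28 basal genes, 22 were highest in replicate 1 in both treatments and 14 differed, each higher in replicate 1 than in replicate 2 (median of all 28 log2 0.72). Krt15 (1.85, edgeR adjusted p = 2.45e-06), Fat2 (1.98), Dlk2 (1.78) and Krt5 (1.14, adjusted p = 6.01e-05) were among them. Trp63 was not (1.00, adjusted p = 0.113), although it passed without either replicate 2 library and by DESeq2.

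Squamous genes were highest in replicate 1 in both treatments for 38 of 44, but their distance from replicate 2 was larger with estrogen, a difference that was not tested. The sum in replicate 1 was 2.49 times that in replicate 2 with estrogen and 1.44 times without. In all, 17 of 44 (38.6%) differed by replicate number, close to the 35.2% of all genes. Without the replicate 2 library lacking estrogen 40 passed, and without the replicate 2 library with estrogen 37. Without the replicate 1 library with estrogen 12 passed. Krt6b (log2 ratio 1.12, edgeR adjusted p = 0.223) and Krt16 (1.00, adjusted p = 0.171) did not pass, whereas Sprr2b (0.45, adjusted p = 1.31e-05) and Sprr2a3 (0.66, adjusted p = 0.000334) did. Leaving out either replicate 2 library also brought the basal count to 24 and 22 of 28.

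Secretory genes ran against the basal and squamous ones. Of 24 secreted and mucin genes tested, 15 differed by replicate number. Of these 13 were lower in replicate 1 than in replicate 2 (median of all 24 log2 -0.48). When a library was left out, 8 to 17 of 25 tested were called. Without the replicate 1 library with estrogen, which gave the 8, Ltf and Lcn2 no longer passed. Dmbt1, a mucosal defence glycoprotein, had 273, 795 and 809 CPM with estrogen and 289, 681 and 696 CPM without (log2 ratio -1.37, edgeR adjusted p = 3.78e-06). Replicate 1 stood apart from the other libraries in both treatments. Ltf (-0.59, adjusted p = 0.00531) also differed, but not without any 1 of the replicate 1 and replicate 3 libraries, and Foxa2 did not (0.01, adjusted p = 0.941). Slpi, a protease inhibitor, and Spdef, a goblet cell factor, were higher in replicate 1, Slpi without passing (0.71, adjusted p = 0.0805) and Spdef passing (0.95, adjusted p = 0.00709). The simple epithelium list had 17 of 28 called, 14 of them lower in replicate 1 than in replicate 2, with 7 called without the replicate 1 library with estrogen and up to 21 with another left out. Claudin 3 (Cldn3, -0.63), occludin (Ocln, -0.34) and Prom1 (-0.53) had the smallest p-values.

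Ribosomal protein genes followed another order. Of 83 tested, 66 were highest in replicate 3 in both treatments and 78 differed by replicate number, but 19 without the replicate 3 library with estrogen and 21 without the one lacking it. Without the replicate 1 library 46 (with estrogen) and 47 (without) passed. In the other lists 13 of 18 luminal, 9 of 15 glandular and 12 of 19 estrogen and progesterone genes differed, against 35.2% of all genes tested. The small lists, which cannot be set against that share, held 5 of 7 stromal, 1 of 7 smooth muscle, 2 of 5 immune, 0 of 3 endothelial and 3 of 6 mesothelial genes that differed. With a library left out these became 4 to 8 stromal, 0 to 1 smooth muscle, 1 to 3 immune and 1 to 4 mesothelial genes. Up to 11 stromal genes were tested in those fits, so their counts are not on the same base as the 7 above. Without the replicate 1 library with estrogen 4 luminal, 6 glandular and 3 estrogen and progesterone genes passed. In the glandular list Sult1d1, Cxadr (log2 ratio of replicate 1 over replicate 2 -0.54) and Lif (0.41) had the smallest p-values, and in the luminal list Wnt11 (-0.61) did. Among transcription factors 158 of 403 (39.2%) differed, close to the 35.2% of all genes tested. Of these 96 were higher in replicate 1 than in replicate 2. Calls fell to 69 without the replicate 1 library with estrogen and to 98 without the one lacking it. Pitx1 (log2 ratio 1.34, edgeR adjusted p = 0.00938) and Hif1a (0.69, adjusted p = 7.17e-05) were higher in replicate 1, and Elf3 (-0.40, adjusted p = 0.00332) and Xbp1 (-0.29, adjusted p = 0.0278) lower.

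**Figure D4:**
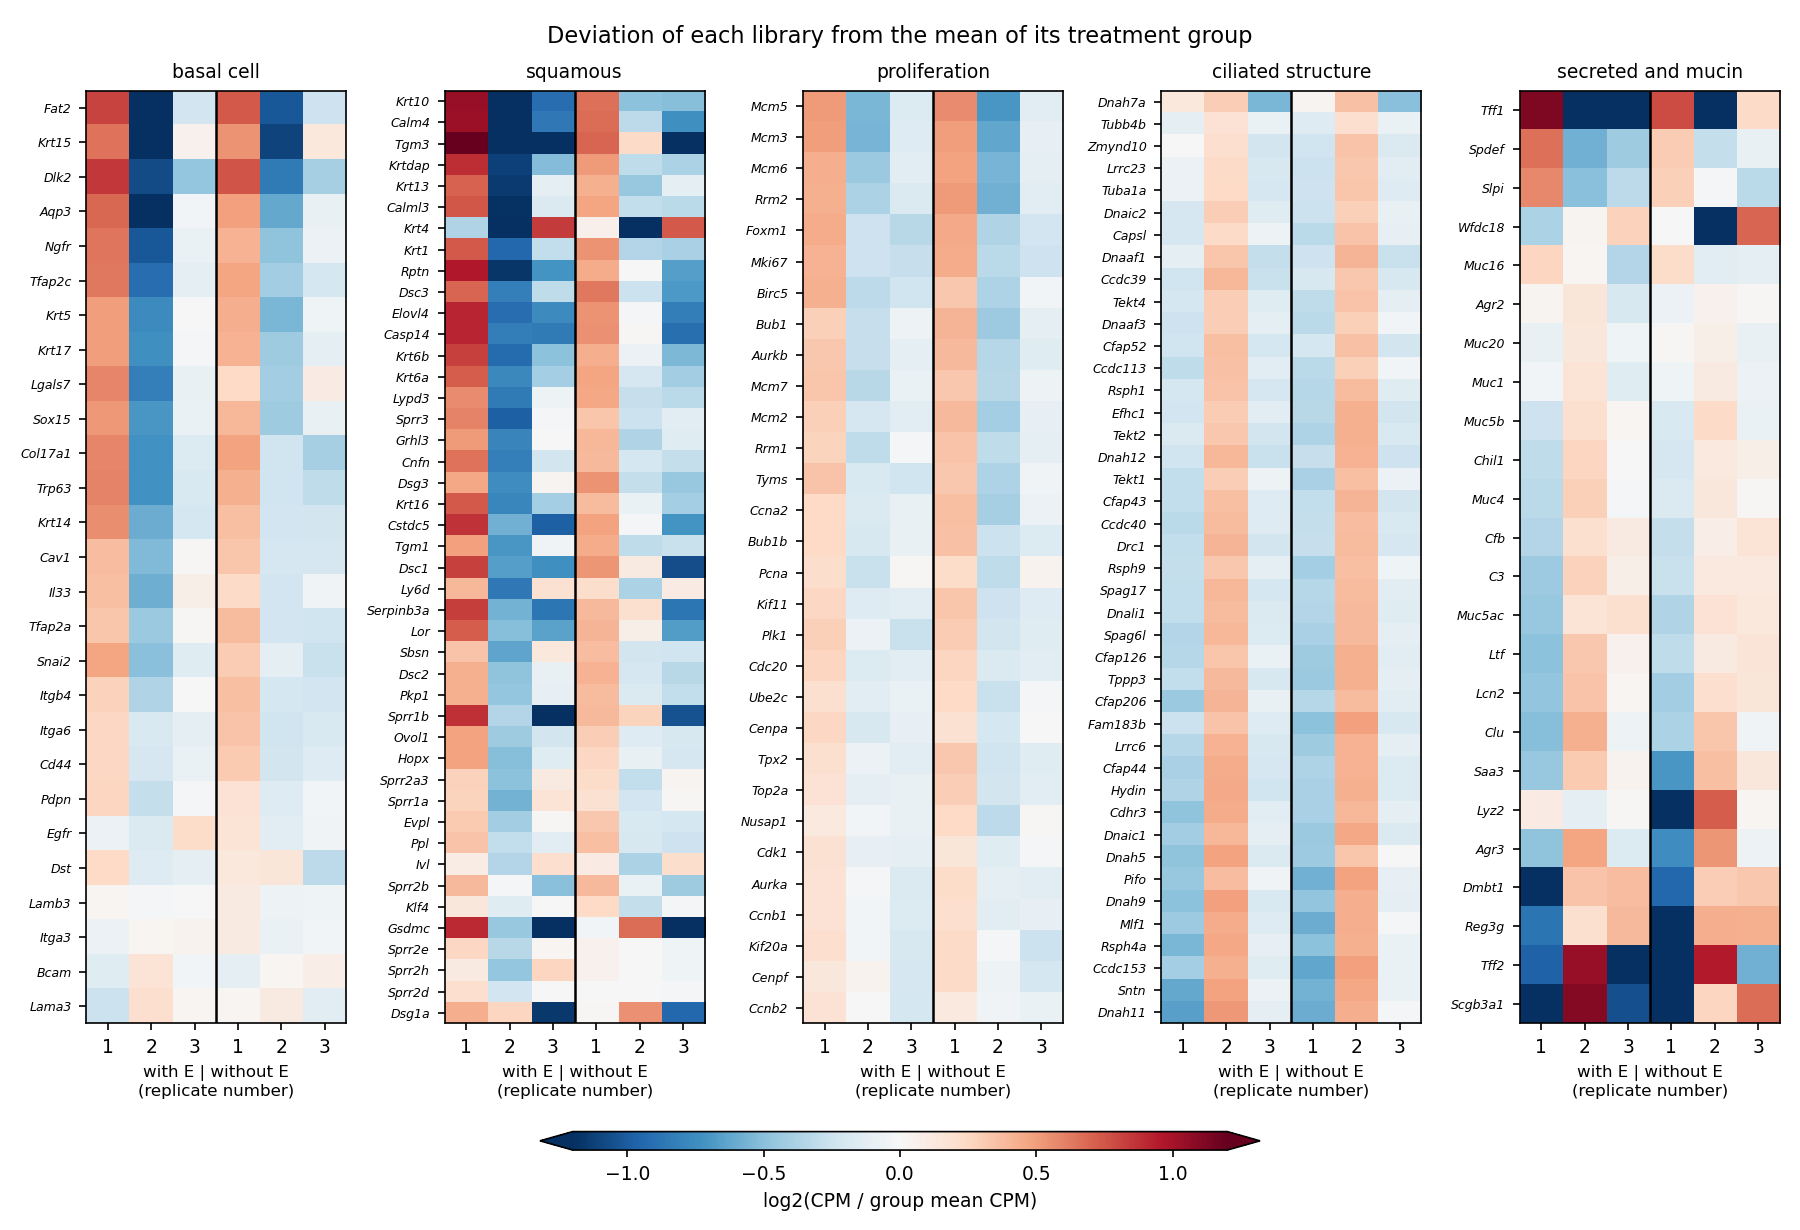
Deviation of each KO library from the mean of its treatment group, as log2(CPM / group mean CPM), for tested members of 5 lists (rows, with 27 of the 28 basal genes drawn), with the 3 libraries with estrogen left of the line and the 3 without right of it, and values past the ends of the colour scale drawn at its end. Rows are ordered by the log2 ratio of replicate 1 over replicate 2. Replicate 1 is red for 30 of 30 proliferation genes and replicate 2 is red for 42 of 42 ciliated structure genes in both treatments.

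The 10 genes with the smallest replicate p-values belonged to several of these blocks. Sult1d1, a sulfotransferase, had 50.8, 140 and 96.2 CPM with estrogen and 48.2, 142 and 102 CPM without (log2 ratio -1.50, edgeR adjusted p = 9.29e-07). Ccn2, an extracellular signalling protein, had 8.26, 79.2 and 18.7 CPM with estrogen and 6.37, 61.4 and 19.3 CPM without (-3.24). Replicate 2 was highest for both, and also for the dynein Dnah6, Atp6v0d2 and Gm19935. Cd34 (1.85), Vsnl1 (1.35) and Tmem267 (1.06) were highest in replicate 1.

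Far fewer genes differed with estrogen than by replicate number. In fits of the 6 KO libraries with both terms, these were 486 and 5589 of 15900 genes. A fit without the replicate block leaves differences between replicate numbers in its spread, so its count is not on the same base. With the 12 libraries in the fit and no block, 0 of 16465 genes differed between KO organoids with and without estrogen by edgeR, 411 (2.5%) had an unadjusted p under 0.05, and DESeq2 called 20. Groups did not overlap for 351 genes that were higher with estrogen (2.13%) and 781 that were lower (4.74%). Of the markers, Ltf (log2 fold change 0.37 with over without estrogen, SE 0.55), Krt5 (-0.05, SE 0.36) and Foxj1 (-0.33, SE 0.20) had edgeR adjusted p = 1.0.

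Same-numbered libraries deviated together, and with the replicate number as a block in the 6 KO libraries 486 of 15900 genes (3.06%) differed, 141 (0.887%) higher and 345 (2.17%) lower with estrogen. The same block in the fit of all 12 libraries called 0 of 16465 (668 at an unadjusted p under 0.05). Cilium structure genes accounted for 27 of the lower calls, out of 42 tested, and regulators for 7 of 18, namely Foxj1, Rfx2, Myb, Mcidas, Ccno, Ccna1 and Deup1. Foxj1 was lower with estrogen in each same-numbered pair (log2 -0.33, blocked adjusted p = 0.0115 by edgeR). By CPM, all 42 structure genes were lower with estrogen in 3 of 3 pairs, against 29.9% of all genes. Only 9.62% of all genes were higher in 3 of 3 pairs, so pair counts leaned to lower values in general. The median log2 of the 42 genes in the blocked fit was -0.29. Groups overlapped for 40 of the 42 genes. Tekt2, a filament protein of the axoneme (log2 -0.52), Lrrc23 (-0.48) and Dnaaf1 (-0.48) were among the called genes (blocked adjusted p = 0.00504 each by edgeR).

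Outside the cilium lists the blocked fit called between 0 and 3 genes of each marker list, against 3.06% of all genes tested. Basal genes had 1 of 28 (3.57%; Bcam, higher), squamous genes 3 of 44 (6.82%; Sprr2b, Klf4 and Ivl, all higher), stromal genes 1 of 7 (14.3%; Fbln1, higher), and gland, luminal, simple epithelium and proliferation genes 0. Secreted and mucin genes had 2 of 24 (8.33%), with Agr2 higher (log2 0.44) and Agr3 lower (-0.34), both protein disulfide isomerases. Of 22 genes of the estrogen and progesterone list, Sult1e1, an estrogen sulfotransferase, had 0 reads in all 6 libraries, 19 were tested with the block, and 3 (15.8%) passed. Among them were the progesterone receptor Pgr (log2 0.30, blocked adjusted p = 0.0469 by edgeR) and Esr1 (0.26, adjusted p = 0.0497). Padi1, a peptidylarginine deiminase of the rodent uterus, had 91.4, 126 and 105 CPM with estrogen and 50.7, 52.5 and 80.6 CPM without. Its groups did not overlap, and it did not pass (log2 0.85 and edgeR adjusted p = 1.0 without the block, adjusted p = 0.273 with it).

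By the naming rule applied to the blocked fit, the strongest higher genes with a mean of at least 1 CPM included Gbp8 (log2 1.97), Fat3 (1.72), Slc16a12 (1.51), Rnf180 (1.47), Alpl, Dhrs9, Padi2, Sema6d and BC030500. The strongest lower ones were Mypn (-0.92), 5330413P13Rik, Iqch, Smoc2, Slc24a4, Sla, 9130015G15Rik, Plxnb3, Ocm and the dynein Dnah7c (-0.75). Dhrs9, a retinol dehydrogenase, had 13.4, 14.3 and 11.3 CPM with estrogen and 6.53, 4.24 and 5.49 CPM without (log2 1.31, blocked adjusted p = 0.00908 by edgeR). It was also called by DESeq2 without the block (adjusted p = 0.00363), as were Padi2 and Rnf180.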

How the data were processed

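Raw read counts per gene were deposited, made by the authors with featureCounts on RefSeq exons grouped by symbol, per the file headers (2.0.0, against 2.0.3 in the submitters' processing notes). STAR 2.7.10b, Trim Galore 0.6.6 and FastQC 0.11.7, with the mouse build GRCm39, are listed in the same notes. The recorded options ignore pairs and strand and count neither multi-mapping reads nor reads shared by genes, so levels of near-identical genes (Krt6a and Krt6b, the Sprr2 genes, Dnah7 genes) are uncertain. Of 123 named genes, 31 overlap another gene in the RefSeq table of GRCm38, among them Trp63, Cp, Hif1a, Foxo3, Dnah9, Dnah11 and Tubb4b. No mitochondrially encoded gene is listed.

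Groups came from the labels. Levels are CPM on library totals of 75654191 to 108665407 reads. Exon lengths for 24964 of 26264 genes came from GENCODE M21 (GRCm38) and only approximate the authors' gene models. Tests used edgeR 4.0.16 in R 4.3.3 with filterByExpr (minimum count 10, minimum total 15), TMM scaling and the quasi-likelihood test. Benjamini-Hochberg adjustment was over all genes tested. The estrogen test was two-sided and fitted on 12 libraries in 4 groups with a common spread. The replicate test was fitted on the 6 KO libraries with treatment and replicate number as terms. It was an F test of all replicate coefficients together, not of 1 ratio. Both were tested on simulated data, drawn without pairing of replicate numbers. The estrogen test recovered 18 of 50 genes changed 1.5-fold and 40 of 50 changed 2-fold, with 10 false calls in the whole simulation. For the replicate test these were 2 and 22 of 50, with 13 false calls. Its simulated spread came from a fit without the replicate term, so it included differences between replicate numbers. The recovery of the real replicate test may therefore differ. The fit with the replicate block was not simulated. DESeq2 1.42.0 was an alternative, beside other scalings and filters, a replicate block and leaving out each library. A share of 0 reads allows up to 3 reads, 0.0276 to 0.0397 CPM per library, for counting error only.

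Deviations from the group mean of same-numbered KO libraries correlated across genes by 0.62, 0.55 and 0.42, and those of other pairs by -0.55 to 0.04, so the numbers were taken to pair the KO libraries. The labels do not say what a number marks. The p-values measure only the spread between these libraries, which may be technical.

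The organoid groups, the 15 gene lists (343 entries, of which Flg, Dnai1, Dnai2 and Spink3 were not found by symbol) and the tests were chosen with earlier results of these data known. Genes named were the 5 markers, the 20 with the highest CPM, the 4 highest members of each list and those with 0 reads throughout, the 20 highest transcription factors per kilobase, up to 10 called genes in each direction for estrogen, the 10 with the smallest replicate p-values and the 3 with the smallest per list. Other names were chosen after their values were seen. A few genes that these rules name are not reported here.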

Additional observations from a re-analysis of the deposited data

How the results depend on the processing

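Calls for estrogen in KO organoids depended on the model. With no block edgeR called 0 genes, and 0 to 4 with a library left out. The 4, called without the replicate 3 library lacking estrogen, were Bcat1, Tmem213, Pcdh17 and Arsj, all higher with estrogen and named after their values were seen. DESeq2 called 20, the replicate block in the 6 KO libraries 486, and in all 12 libraries 0. The cause of the difference between models was not tested. Calls by replicate number numbered 5589, and 2561 to 5445 with a library left out, the lowest without the replicate 1 library with estrogen. By DESeq2 4933 passed. For single genes, 1232 alternative values kept direction and side of the threshold, 27 lost and 4 gained the threshold, 1 moved, and 8 turned sign. The turned values were small. The estrogen log2 fold change of Krt5 ran from -0.37 to 0.23 with a library left out, and was 0.22 without the untreated replicate 1 library and 0.23 without the treated replicate 2 library. That of Trp63 ran from -0.45 to 0.23, with 0.22 and 0.23 for the same 2 settings and 0.018 without the treated replicate 3 library. The replicate 1 over 2 log2 ratio of Foxa2 ran from -0.041 to 0.066, was -0.022 without the untreated replicate 2 library and -0.011 with library size alone. With the reads of the 20 leading genes out of the total, sums were 5829 CPM for the glandular, 5043 for the luminal, 11980 for the simple epithelium and 838 for the mesothelial list. The share of genes highest at the same number in both treatments was 64.4% with TMM. Among genes of at least 10 CPM in every KO library it was 70.0%. There it was 100% for the stromal and smooth muscle lists and 0% for the mesothelial list. These list shares rest on few genes, since 3 stromal, 1 smooth muscle and 2 mesothelial genes exceeded 10 CPM in all 6. Leaving mitochondrially encoded genes out of the total gave no value, since none is listed. Depth limited levels near the 0.0276 to 0.0397 CPM that 3 reads make up in a library.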
